A study of Mus musculus with 2 samples.

Results

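The regions described here are autosomal Ronin peaks that lie close to another one. A peak was taken when the midpoint of its nearest other peak on the same chromosome was 1000 bp or less away, on chromosomes 1 to 19. This gave 776 of the 36044 autosomal peaks, from a list of 37360 peaks that also covers the X chromosome. Binding of Ronin (Thap11) was profiled by ChIP-seq, the sequencing of immunoprecipitated chromatin, in newborn (postnatal day 0) wild-type mouse retinae on a CD-1 outbred background, with 1 Ronin ChIP sample and 1 control sample. The control came from retinae of the same genotype, background and age. Its title says input but its antibody entry gives normal rabbit IgG, and no values of its own were analysed here. Each sample was a pool of more than 10 retinae, so cell types of the retina and single animals cannot be told apart. There are no replicates, and no test between samples was possible. Coordinates are those of mouse assembly mm9. Genes near the peaks were not analysed here.

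Ronin carries a THAP-type zinc finger, which binds DNA directly, and works with the cofactor HCF-1 (Hcfc1). In embryonic stem cells it is known for occupying promoters of genes for growth and metabolism, and in the developing retina for regulating genes of mitochondrial function. In ChIP-seq a transcription factor bound at a single site gives a narrow pile of reads around that site. A close pair of called peaks can be 2 sites or 1 broad enriched stretch split by the peak caller, and a peak list alone does not separate these.

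The close neighbours were almost all plain pairs. The 776 peaks made up 2.15% of autosomal peaks (exact Clopper-Pearson 95% interval 2.01% to 2.31%) and fell into 386 groups, of which 382 were pairs and 4 held 3 peaks each. No group held more than 3. A group spanned 556 to 1973 bp from its first to its last base, with a median of 892 bp. All 776 peaks were 191 bp wide, and no autosomal peaks overlapped: the smallest gap between the edges of adjacent ones was 174 bp. Within the 382 pairs the midpoints lay 365 to 996 bp apart, with a median of 699 bp and quartiles of 532 and 840 bp. These intervals and all others given here cover counting error only.

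Distances within close pairs were spread evenly between the caller's minimum and the limit of 1000 bp. Per the file headers, the minimum distance between called peaks was set to 382 bp, and 1 pair was closer. Above 381 bp and up to 1000 bp there were 389 adjacent pairs of peaks, or 62.8 per 100 bp of distance (exact Poisson 95% interval 56.8 to 69.4). From 1000 to 5000 bp there were 2213, or 55.3 per 100 bp (53.0 to 57.7). The close distances thus held slightly more pairs per 100 bp than the farther ones, and the 2 intervals overlap. By steps of 100 bp the counts were 66 from 500 to 600 bp, 53 from 600 to 700 bp, 56 from 700 to 800 bp, 76 from 800 to 900 bp and 61 from 900 to 1000 bp. No distance stood out beyond the counting error of these steps, whose intervals all overlap. The caller's minimum distance and its filter against the surrounding 10000 bp both act at this range, and their part in the counts was not tested.

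**Figure D1:**
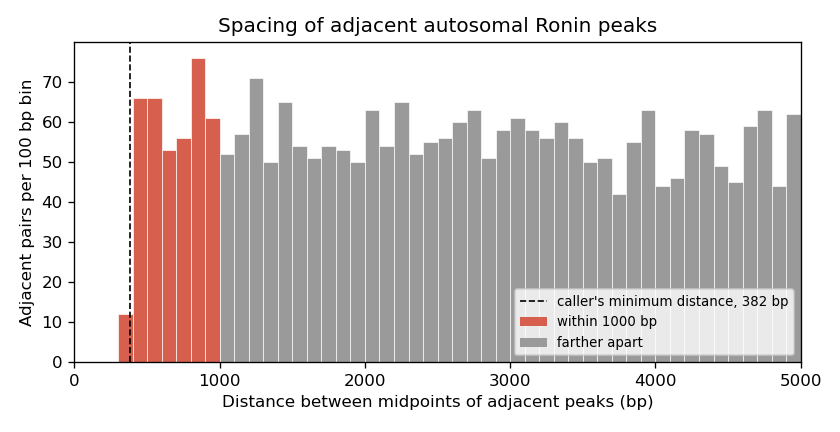
Number of adjacent autosomal peak pairs (y axis) by the distance between their midpoints in bp (x axis), in steps of 100 bp. Red bars are pairs within 1000 bp, grey bars are pairs farther apart, and the dashed line is the caller's minimum of 382 bp. Counts jump from 12 pairs in the step that holds this minimum to 66 in the next and stay between 42 and 76 up to 5000 bp.

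The limit of 1000 bp fell in a flat part of this distribution. The 3 pairs just inside it lay 992 bp apart on chromosome 15, with 6 and 8 tags, 993 bp apart on chromosome 19, with 8 and 6 tags, and 996 bp apart on chromosome 2, with 6 and 7 tags. The 3 just outside lay 1002 bp apart on chromosome 14, with 6 tags in each peak, 1008 bp apart on chromosome 13, with 9 and 6 tags, and 1012 bp apart on chromosome 7, with 8 and 7 tags. A tag is a mapped read. The tag count of a peak was read back from its place in the deposited list, which leaves counts at the top as lower bounds. Pairs on both sides of the limit were low and alike in height. The 2 peaks ranked first in the whole list, on chromosome 2 at 98505179 to 98505369 and at 98506561 to 98506751 with at least 46 tags each, lay 1382 bp apart and so are not among the neighboured peaks.

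Heights of neighboured peaks ran close to those of the other 35268 autosomal peaks. Both sets had a median of 7 tags and quartiles of 6 and 8. The mean was 7.30 tags (SD over peaks 2.46, n = 776) for neighboured peaks and 7.13 (SD over peaks 2.05, n = 35268) for the others. Of the neighboured peaks, 229 had 8 or more tags, which is 29.5% (exact 95% interval 26.3% to 32.9%), against 25.8% of all autosomal peaks and 25.8% (25.3% to 26.2%) of the others. For 10 or more tags the count was 60, or 7.73% (5.95% to 9.84%), against 6.43% of all autosomal peaks and 6.41% (6.15% to 6.67%) of the others. For 10 or more tags the intervals overlap. For 8 or more they nearly touch, and they treat the peaks of a group as independent, which may make them too narrow. Without chromosome 7 the share with 8 or more tags was 29.2% (25.9% to 32.6%), against 25.7% of the others. Peaks of 1 library are not replicates, so this is a description of 1 list and not a test. No peak height was used to choose the neighboured peaks.

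**Figure D2:**
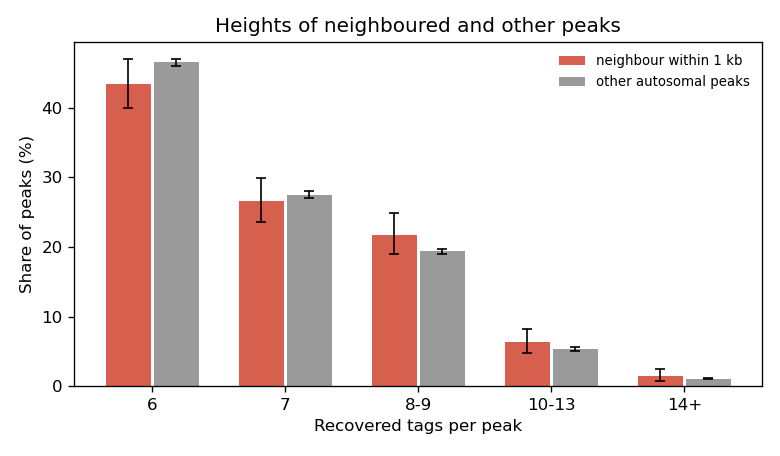
Share of peaks in percent (y axis) by recovered tags per peak (x axis) for the 776 peaks with a neighbour within 1 kb (red) and the 35268 other autosomal peaks (grey), with exact 95% intervals as error bars. Peaks of 6 tags made up 43.4% of neighboured and 46.5% of other peaks, peaks of 8 or 9 tags 21.8% and 19.3%. Peaks under 6 tags (3 neighboured, 65 other) are not drawn.

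Shares by distance to the nearest peak varied within narrow bounds. The share of peaks with 8 or more tags was 28.2% (exact 95% interval 21.3% to 36.0%, 156 peaks) where the nearest peak lay within 500 bp and 29.8% (26.3% to 33.6%, 620 peaks) from 500 to 1000 bp. It was 27.2% (24.5% to 29.9%, 1090 peaks) from 1000 to 2000 bp, 26.2% (24.7% to 27.8%, 3137 peaks) from 2000 to 5000 bp and 25.6% (24.3% to 26.8%, 4583 peaks) from 5000 to 10000 bp. From 10000 to 50000 bp it was 25.8% (25.2% to 26.4%, 18877 peaks), and beyond that 25.4% (24.4% to 26.4%, 7581 peaks). Strong peaks are those of 14 or more tags. They made up 1.92% (3 peaks) of the class within 500 bp and 1.29% (8 peaks) from 500 to 1000 bp. Their share was 0.917% from 1000 to 2000 bp, 0.893% from 2000 to 5000 bp and 1.11% from 5000 to 10000 bp. From 10000 to 50000 bp it was 1.08%, and beyond that 1.11%. Classes next to each other in distance do not differ beyond their intervals in either measure. Seen from height, 2.01% (1.81% to 2.24%) of 6-tag peaks had a neighbour within 1000 bp, 2.09% (1.82% to 2.39%) of 7-tag peaks, 2.42% (2.07% to 2.80%) of peaks of 8 or 9 tags and 2.54% (1.88% to 3.34%) of peaks of 10 to 13 tags. These shares go up by class, and each overlaps the next.

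Strong peaks were a small share of the neighboured peaks and of all autosomal peaks alike. The 776 peaks held 11 of the 388 strong autosomal peaks. That is 1.42% of the neighboured peaks (exact 95% interval 0.710% to 2.52%), against 1.08% of all autosomal peaks and 1.07% (0.964% to 1.18%) of the others. Of the strong peaks, 2.84% (1.42% to 5.02%) had a neighbour within 1000 bp. Chromosome 7 carried 5 of the 11, and 52 of the 388 strong autosomal peaks (13.4%). Without it the order turned: 6 of 737 neighboured peaks were strong (0.814%), against 0.990% of the others. Chromosome 7 was left out after it was seen to carry 5 of the 11, which by itself lowers the share. Without chromosome 2 the order stayed, with 1.13% against 1.06%. Within this depth, no difference in the share of strong peaks was detectable, and 11 peaks cannot show that there is none.

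The 11 strong neighboured peaks lay in 8 groups on chromosomes 2, 7, 15, 16 and 17. In 3 of these groups 2 peaks were strong, and in the other 5 a single strong peak had a lower companion. The highest was on chromosome 2 at 181652523 to 181652713 with at least 44 tags, the seventh peak of the whole list. Its companion 760 bp farther on, at 181653283 to 181653473, had 18 tags. On chromosome 7 a group of 3 began at 26023006 with 21 tags, went on 481 bp later at 26023487 with 24 tags and ended 733 bp after that at 26024220 to 26024410 with 11 tags. It was the only group of 3 with a strong peak, and it holds the closest 2 strong neighbours. The third group with 2 strong peaks was also on chromosome 7, at 134888883 to 134889073 with 18 tags and 694 bp on at 134889577 to 134889767 with 16 tags.

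In the other 5 groups the 2 heights differed by 7 to 20 tags. On chromosome 17 a peak of 27 tags at 23810421 to 23810611 had a companion of 7 tags 546 bp away. On chromosome 7 a peak of 26 tags at 25055246 to 25055436 had a companion of 7 tags 806 bp away. On chromosome 2 a peak of 23 tags at 30351441 to 30351631 had one of 10 tags 890 bp away. The companions of these 3 thus ranged from near the caller's threshold of 6 tags to 10 tags. Of all autosomal peaks, 6.43% had 10 or more. On chromosome 16 a peak of 17 tags at 18812029 to 18812219 had a companion of 6 tags 499 bp away. On chromosome 15 a peak of 16 tags at 81494167 to 81494357 was preceded by one of 9 tags 528 bp before it. The caller filtered all peaks of the list against the control. The control signal at these 8 places was not analysed further, and binding of Ronin itself is not established here, at them or at any other peak.

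**Figure D3:**
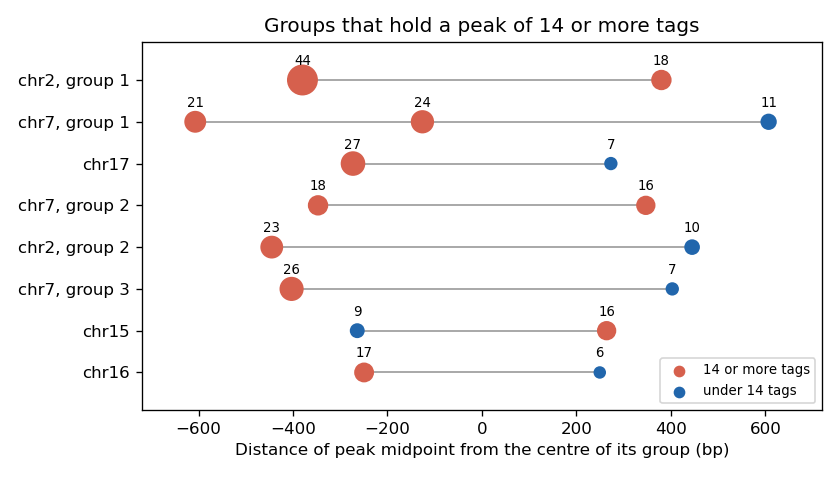
The 8 groups of close peaks that hold a peak of 14 or more tags, ordered by summed tags. Each point is a peak, placed by the distance in bp of its midpoint from the centre of its group (x axis) and labelled with its tags; point area grows with tags, red marks 14 or more tags and blue fewer. In 3 groups 2 points are red, and 1 group, on chromosome 7, has 3 points.

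Outside these 8 there were 378 groups. By this choice none of them held a peak of 14 or more tags, so a highest peak of 13 tags is no result. They had 11 to 25 tags in all, with a median of 14. In 199 of them (52.6%) no peak exceeded 7 tags, and 44 held a peak of 10 to 13 tags. Taken singly, 70.1% of the neighboured and 74.1% of the other autosomal peaks had 6 or 7 tags. Low groups are thus no result about closeness. The other 3 groups of 3 peaks were among these 378. On chromosome 1 the peaks began at 181380996, 181381582 and 181382542 with 7, 6 and 10 tags. On chromosome 10 they began at 85666858, 85667828 and 85668640 with 8, 8 and 6 tags, over 1973 bp, the widest group. On chromosome 18 they began at 14904087, 14904487 and 14905032 with 6 tags each. The closest pair of the list, 365 bp apart, lay on chromosome 4 at 11583645 and 11584010 with 8 and 12 tags. The next closest were 385 bp apart, on chromosome 4 at 73937669 and 73938054 with 8 and 6 tags, and 386 bp apart, on chromosome 15 at 59614148 and 59614534 with 9 tags each. These 3 pairs had 20, 14 and 18 tags in all, beside the median of 14 in groups without a strong peak.

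Tags of both peaks could be compared in the 382 pairs. Of the 382 pairs, 119 had equal tags in both peaks and 135 differed by 1 tag, so 66.5% (exact 95% interval 61.5% to 71.2%) differed by at most 1. With a limit of 5000 bp in place of 1000 bp this share was 66.6% (64.6% to 68.6%), so it is not particular to close pairs. Both peaks had 6 or 7 tags in 196 of the 382 pairs (51.3%). Taken singly, 70.1% of the neighboured and 74.1% of the other autosomal peaks had 6 or 7 tags. Low pairs are thus no result about closeness. A difference of 4 or more tags was seen in 28 pairs and one of 10 or more in 5. Neither side was favoured: the peak nearer the start of the chromosome was the higher one in 132 pairs and the other in 131.

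In 6 of the 382 pairs (1.57%) both peaks had 10 or more tags. Taken singly, 7.73% of neighboured and 6.43% of all autosomal peaks had as many. With each pair counted once, the second peak along the chromosome had 10 or more tags in 6 of 30 pairs whose first peak did, or 20% (exact 95% interval 7.71% to 38.6%). Where the first peak had under 10 tags, this was so in 20 of 352 pairs, or 5.68% (3.50% to 8.64%). Read the other way, the first peak had 10 or more tags in 6 of 26 pairs whose second did, or 23.1% (8.97% to 43.6%). Where the second had under 10 tags, it was 24 of 356 pairs, or 6.74% (4.37% to 9.87%). In both readings the intervals overlap, which is not a test of a difference. In all, 6 of the 50 pairs with a peak of 10 or more tags had 2 of them. They are the pairs on chromosomes 2 and 7 described above that begin at 181652523, 30351441 and 134888883, and 3 more. Of these, 1 was on chromosome 7 at 4453701 to 4454602 with 12 and 13 tags, 1 on chromosome 4 at 135841276 to 135841979 with 11 and 13 tags, and 1 on chromosome 6 at 124136091 to 124136964 with 10 tags in both peaks. Without chromosome 7 the shares for the second peak were 14.8% (4.19% to 33.7%) and 5.93% (3.66% to 9.02%). Without the pairs that hold a strong peak they were 12.5% (2.66% to 32.4%) and 5.41% (3.29% to 8.32%). The order stayed in both, on 4 and 3 pairs with 2 such peaks. The mapped sequence, control signal and local depth that 2 peaks of a pair share were not examined, and their part in this was not tested.

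**Figure D4:**
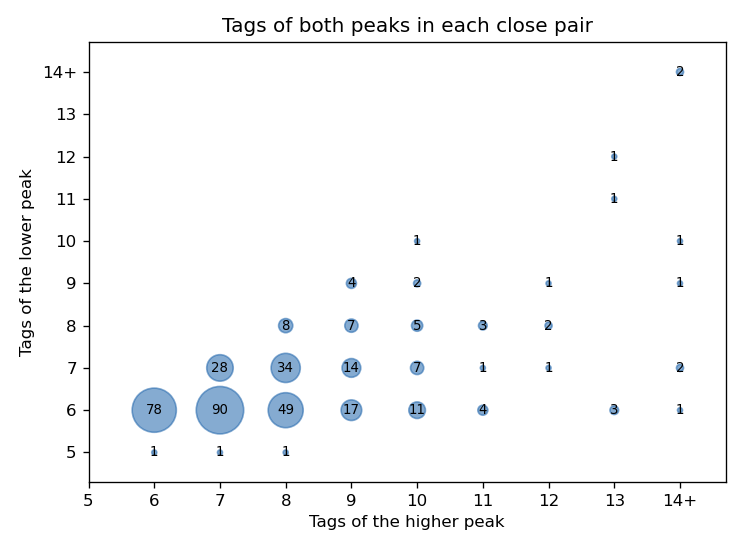
Number of close pairs by the tags of the higher peak (x axis) and the lower peak (y axis), with counts printed on points whose area grows with the count; 14+ stands for 14 or more tags. The mass lies at 6 and 7 tags, with 78 pairs of 6 tags in both peaks and 90 of 7 and 6 tags, and 6 pairs have 10 or more tags in both.

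Neighboured peaks were found on every autosome. The share was highest on chromosome 11, with 58 of 1810 peaks (3.20%, exact 95% interval 2.44% to 4.12%), followed by chromosome 16, with 42 of 1477 (2.84%, 2.06% to 3.82%). It was lowest on chromosome 12, with 20 of 1670 (1.20%, 0.733% to 1.84%), and chromosome 8, with 24 of 1853 (1.30%, 0.832% to 1.92%). Intervals of chromosomes next to each other in this order overlap, but that of chromosome 11 lies wholly above those of chromosomes 8 and 12. Of the 19 intervals, 16 hold the share of all autosomes, and those of chromosomes 8, 11 and 12 do not. The intervals are not adjusted for the number of chromosomes. They also treat the peaks of a group as independent, which may make them too narrow. The highest share was 2.68 times the lowest, from 20 to 68 neighboured peaks per chromosome, and the part of counting error in this was not tested. With a limit of 500 bp this ratio was 4.01, with 2000 bp 1.67 and with 5000 bp 1.44. Among peaks of 7 or more tags it was 6.23. Peaks of any kind per Mb ran from 13.1 on chromosome 7 to 16.0 on chromosome 18. Chromosome 11 had 15.2 peaks per Mb and chromosome 12 had 14.2. On chromosome 7, which carried 5 of the strong neighboured peaks, 39 of 1958 peaks had a neighbour (1.99%), and on chromosome 19 it was 22 of 878 (2.51%).

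**Figure D5:**
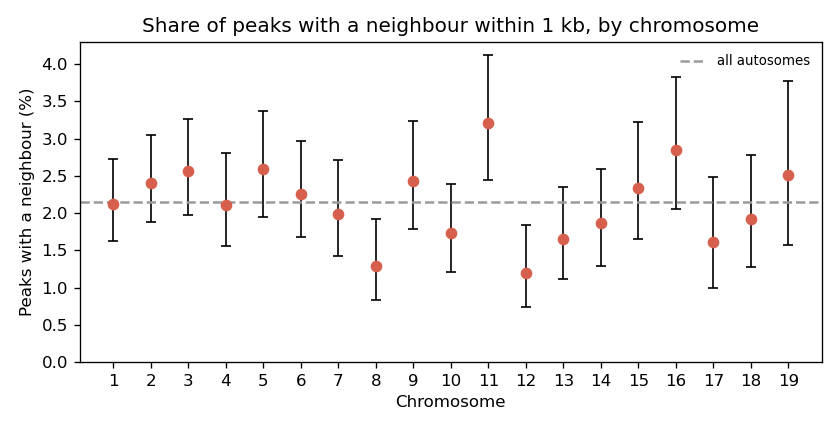
Share of autosomal peaks with a neighbour within 1 kb in percent (y axis) on each of chromosomes 1 to 19 (x axis), with exact 95% intervals; the dashed line is the share over all autosomes, 2.15%. Chromosome 11 lies above the line and chromosomes 8 and 12 below it by more than their intervals. The intervals treat the peaks of a group as independent and may be too narrow.

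Peaks around each peak were also counted without its own group. By the rule, no peak outside the own group lay within 1000 bp of any peak of that group. The stretch left open in a window was thus shorter for neighboured peaks, which weighs most at 5 kb. Its part in the shares below was not tested. A neighboured peak had a median of 31 peaks (quartiles 27 and 35) within 1000 kb on either side, and another autosomal peak also had 31 (quartiles 26 and 36). Within 100 kb the median was 3 for both, and within 10 kb 24.2% (exact 95% interval 21.3% to 27.4%) of neighboured and 25.0% (24.5% to 25.4%) of other peaks had any such peak. A further peak within 5 kb was seen for 14.3% (11.9% to 17.0%) of neighboured peaks and 12.0% (11.6% to 12.3%) of others. Within 100 kb, any such peak was seen for 92.8% (90.7% to 94.5%) of neighboured and 95.1% (94.9% to 95.3%) of other peaks. The share of neighboured peaks was the lower one at 10 kb and 100 kb, and at 100 kb the intervals do not overlap. Peaks of a group have nearly the same surroundings but are counted as independent, so the intervals of neighboured peaks may be too narrow. The mean number of such peaks within 100 kb was 3.15 for neighboured and 3.14 for other peaks. The groups themselves were scattered: neighbouring groups on a chromosome lay a median of 3743595 bp apart, and 6 of 367 such distances were 100000 bp or less. The 2 shortest were 4671 bp, between pairs on chromosome 9 at 54275702 to 54276727 and 54280454 to 54281316, and 4896 bp, between pairs on chromosome 14 at 115475502 to 115476406 and 115480374 to 115481327. The 4 pairs had 14 or 15 tags in all, so none of these places held a strong peak.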

How the data were processed

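The submitters' processing notes name HOMER 4.7 for the authors' peak calls and mm9 as the build; no aligner is given in the sources used here. The ChIP library held 3643141 tags, 268208 of them in peaks, per the file headers. Peaks of 191 bp were kept at a false discovery rate of 0.001, or 6 tags, and filtered against the control and the surrounding 10000 bp, each at 4-fold and a Poisson p of 0.0001. Of 47133 candidates, 9531 were removed by the control and 241 by the local filter. The score deposited by the authors is 1 for all 37360 peaks.

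Tags per peak were recovered from the list's order (falling tags, then chromosome and position). The largest of 43 groups was set to 6 tags, which gives 266288 tags in all. The recovery found known counts in simulated lists sorted that way, which do not test that assumption. In all, 74 peaks, 3 of them neighboured, came out under 6 tags. Peaks whose midpoints lay within 1000 bp were linked into groups. The naming rule took groups with 2 or more peaks of 14 or more tags, the 5 largest groups, the 3 closest pairs, the 3 pairs on either side of the limit and the 5 highest peaks. Groups with 1 strong peak, pairs of 10 or more tags and groups near others were added after their values were seen. Genes were not assigned. The regions and lists were chosen with earlier results of these data known. Tools were scipy 1.17.1, numpy 2.4.6 and pandas 2.3.3 under Python 3.11.15, with figures from matplotlib 3.10.9.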

Additional observations from a re-analysis of the deposited data

How the results depend on the processing

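Alternatives on distance, peak threshold, the X chromosome, strong limits, groups counted once and edge gaps were planned for the count, groups, median and strong share; all others were chosen after seeing the data. Neighboured peaks went from 776 to 156, 1866 and 5003 at 500, 2000 and 5000 bp, and groups from 386 to 78, 919 and 2400, as the limit's own width sets them. With gaps taken from edge to edge there were 984 neighboured peaks. Keeping peaks of 7 or more tags left 257 neighboured peaks in 128 groups, since fewer peaks enter. Their median was then 8 tags, 3.89% (1.88% to 7.04%) were strong and 55.3% had 8 or more tags, against 1.99% and 48.3% of the others. The strong share turned below that of the others at 5000 bp (0.979% against 1.09%) and without chromosome 7 (0.814% against 0.990%). It was 7.73% from 10 tags, against 6.41% of the others, and 0.773% from 20 tags, against 0.465%. With each group counted once by its highest peak it was 2.07% (0.899% to 4.04%), against 1.07%. Taking the highest peak of a group raises this share by construction. Without chromosome 2, which carried 3 of the 11 strong peaks, the strong share was 1.13% against 1.06%. The share with 8 or more tags was 26.9% to 29.3% at other distances, with the X chromosome and without chromosome 7, against 25.6% to 25.8% of the others. Pairs differing by at most 1 tag went from 66.5% (61.5% to 71.2%) to 74.4% (63.2% to 83.6%, 78 pairs) at 500 bp. These intervals overlap, and the cause was not tested. The share was 65.5% at 2000 bp and 66.6% at 5000 bp. The highest share of any chromosome went from 3.20% to 0.960%, 6.13% and 16.3% at 500, 2000 and 5000 bp and 1.91% at 7 or more tags, on chromosomes 5, 2, 13 and 4 in place of 11; the lowest went from 1.20% to 0.240%, 3.67%, 11.4% and 0.306%, and highest over lowest from 2.68 to 4.01, 1.67, 1.44 and 6.23. No paired analysis was possible because there is 1 sample in each group. At this depth the strong share rests on 11 peaks.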

Other observations

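On the X chromosome 17 of 1316 peaks had a neighbour within 1000 bp, or 1.29% (exact 95% interval 0.754% to 2.06%), against 2.15% (2.01% to 2.31%) on the autosomes. None of these 17 was among the peaks counted in the report.

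Each deposited peak carries a number within its chromosome that runs roughly by falling tags. As a percentage of the chromosome's highest number, the median was 42.8% for neighboured peaks and 47.3% for other autosomal peaks. Among peaks of 6 tags it was 67.5% and 70.3%, among those of 7 tags 35.2% and 36.7%, among those of 8 or 9 tags 16.2% and 16.4%, and among those of 10 or more 3.18% and 3.64%.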
